A study of Mus musculus with 8 samples.

Results

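The CDK inhibitors of the INK4 family (Cdkn2a, Cdkn2b, Cdkn2c and Cdkn2d) and the CIP family (Cdkn1a, Cdkn1b and Cdkn1c) were described in sorted mouse bone marrow cells with and without a shortened Hmga2. Members were all probe sets whose platform gene symbol is 1 of these 7 genes, and 7 probe sets for 6 genes were found among 35556 probe sets. Of the 35556, 21789 had 1 gene symbol and gave 19938 tested genes. Cdkn1b had 2 probe sets and the other 5 genes had 1 each. The probe set that lists Cdkn1a also lists 4930567H12Rik, so it names no single gene, and Cdkn1a was not analysed here. RNA came from flow-sorted KLS cells (lineage-negative marrow cells that carry c-Kit and Sca-1, a fraction that holds the blood stem cells) and MEP cells (megakaryocyte-erythroid progenitors) of C57BL/6J mice. The 4 groups were WT KLS, TG KLS, WT MEP and TG MEP, where WT is wild type and TG carries the genotype written ∆Hmga2, in a series titled as an Hmga2 overexpression study. Each group had 2 Affymetrix arrays, 1 per independent RNA preparation, and each preparation pooled 4 or 6 mice. The sources used here do not give the age and sex of the mice or the promoter that drives the shortened gene.

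CDK inhibitors bind cyclin-dependent kinases and hold cells in the G1 phase of the cell cycle. INK4 proteins bind CDK4 and CDK6 and block their pairing with D cyclins, whereas CIP proteins bind cyclin-CDK complexes more broadly, above all those of CDK2. In blood-forming cells of mice, individual members are known to limit the division and self-renewal of stem and progenitor cells, and Hmga2 is known to lower Cdkn2a expression in mouse neural stem cells.

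Of the analysed members, Cdkn2c alone passed an adjusted p under 0.05 between the cell types (limma adjusted p = 0.0458), which several alternatives did not keep. The 250 bases before each annotated start of Cdkn2c are shown because of this call, from RefSeq on GRCm38.p6, minus strand. The upper one is chr4:109666757-109667006 and the lower one chr4:109665373-109665622. Capitals mark matches to GGGCGG, the GC box letters, on either strand.
Cdkn2c, upstream start: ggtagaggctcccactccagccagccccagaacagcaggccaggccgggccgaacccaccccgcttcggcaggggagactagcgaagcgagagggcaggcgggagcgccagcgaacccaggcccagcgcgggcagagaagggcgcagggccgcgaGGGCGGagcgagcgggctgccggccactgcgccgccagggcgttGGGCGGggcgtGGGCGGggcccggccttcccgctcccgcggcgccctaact
Cdkn2c, downstream start: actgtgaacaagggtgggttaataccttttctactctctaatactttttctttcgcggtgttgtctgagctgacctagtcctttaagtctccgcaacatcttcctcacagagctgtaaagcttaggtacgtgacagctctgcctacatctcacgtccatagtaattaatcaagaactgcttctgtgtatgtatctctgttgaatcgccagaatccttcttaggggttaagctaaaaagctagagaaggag
The upstream window held 3 GC boxes and 77.2% G or C, and the downstream window held 0 GC boxes and 42.8% G or C. Neither held GATAA, TTTNNCGC or CACGTG on either strand. Of 32851 promoter windows of this length, 32.7% held GGGCGG, 22.6% GATAA, 4.28% TTTNNCGC and 6.02% CACGTG. These are matches of letters and not measured sites.

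On the arrays, 7 of 8 KLS markers were measured and 7 of 7 had a higher mean in KLS cells, 6 of them with no overlap between the cell types. Ly6a, the Sca-1 antigen of the KLS gate, was not among the genes with a probe set of 1 symbol. Of 8 MEP markers, 5 were lower on every KLS array than on every MEP array and 1, Itga2b, was higher on every KLS array. Mature neutrophil markers (10 of 10 measured) averaged 9.79 to 10.6 on the KLS arrays and 8.40 to 10.1 on the MEP arrays on the log2 scale, and lymphoid markers (9 of 10) averaged 7.995 on WT MEP 1 against 6.43 to 6.64 on the other MEP arrays. WT MEP 1 stood apart from the other MEP arrays. It was the highest of the 4 for 10 of 10 neutrophil markers (mean 10.1 against 8.40 to 9.25), for 7 of 9 lymphoid markers and for 5 of 7 KLS markers (mean 7.34 against 6.63 to 6.70). Late erythroid markers (4 of 6) averaged 8.04 to 9.21 on the KLS arrays. On the MEP arrays they averaged 9.56 and 9.35 in WT and 8.54 and 8.68 in TG cells. WT MEP 2 also lay above both TG MEP arrays for the neutrophil markers (9.25 against 8.40 and 8.54) and the lymphoid markers, but not for the KLS markers. The part of these marker differences in the TG minus WT values of MEP cells was not tested. The targeted gene Hmga2 had a log2 level of 7.35 and 7.11 in TG KLS, 6.85 and 7.12 in WT KLS, 6.95 and 6.99 in TG MEP and 6.70 and 6.74 in WT MEP cells. Its TG and WT arrays overlapped in KLS cells, and in MEP cells both TG arrays were the higher ones. The sources used here do not say whether this probe set lies in the part that the shortened gene keeps.

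Cdkn2c encodes the INK4 protein known in mice for restraining the self-renewal of stem cells. Its log2 level (probe set 10515090) was 6.07 and 6.66 in WT KLS, 6.75 and 6.43 in TG KLS, 7.48 and 7.48 in WT MEP and 6.90 and 7.24 in TG MEP cells. The lowest MEP array lay above the highest KLS array, a separation of the cell types found for 9.04% of all genes in either direction. KLS cells averaged 6.48 ± 0.30 and MEP cells 7.28 ± 0.28 (SD over 4 arrays), so KLS minus MEP was -0.80 ± 0.15 on the log2 scale (limma SE, 95% interval -1.15 to -0.45), or 1.74 fold. By limma it passed the threshold of an adjusted p under 0.05 over all genes (adjusted p = 0.0458), and it was the 1 of 6 CDK inhibitor genes called. Over all genes 1.60% were called in either direction and 0.396% as lower in KLS cells.

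**Figure D1:**
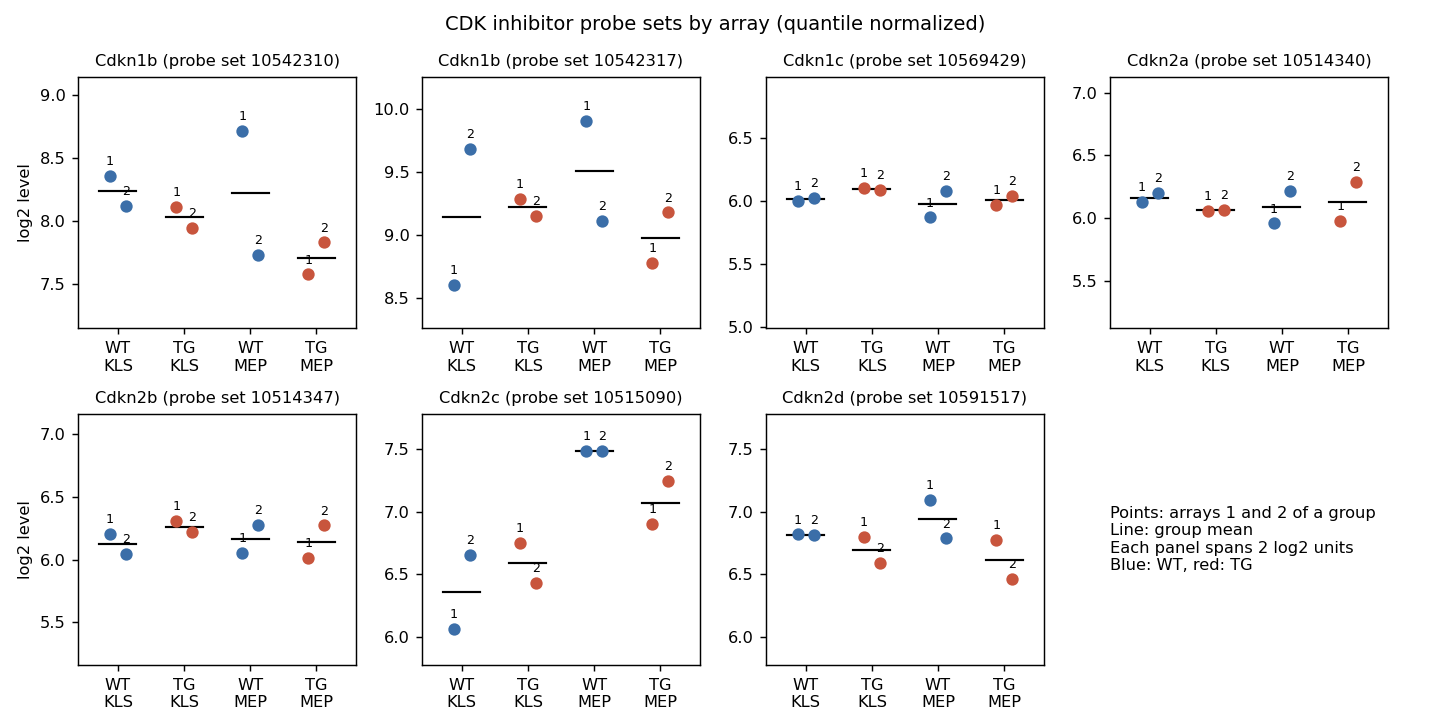
Log2 level (vertical axis, quantile normalized) of each CDK inhibitor probe set on each array, by group; points are arrays 1 and 2 of a group and lines are group means, and every panel spans 2 log2 units. Cdkn2c is higher on all 4 MEP arrays than on all 4 KLS arrays, while Cdkn1c, Cdkn2a and Cdkn2b stay within 0.33 over all 8 arrays.

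The size of the Cdkn2c difference was steadier than its call. It ran from -0.95 to -0.65 with 1 array left out, and the call was kept without WT KLS 2 alone of the arrays (adjusted p = 0.0365). Without each other array the adjusted p was 0.0614 to 0.157, as deposited it was 0.0534 and with median centring 0.0687. Without WT MEP 1, the array with the high lymphoid, neutrophil and KLS markers, the difference was -0.80 (adjusted p = 0.0614).

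Within each genotype the Cdkn2c arrays also did not overlap between cell types. In WT cells the difference was -1.12 ± 0.22 (95% interval -1.62 to -0.62), and in TG cells -0.48 ± 0.22 (-0.98 to 0.02), neither past limma's threshold (adjusted p = 0.234 and 0.540, where 0.00502% and 0.135% of all genes were called). These comparisons within a genotype were chosen after the data were seen. Arrays that do not overlap in these comparisons of 2 with 2 made up 35.9% of genes in WT and 42.0% in TG cells. Of the neutrophil markers 10 of 10 had a higher mean in KLS cells, and of the late erythroid markers 0 of 4 did, and their part in the Cdkn2c difference was not tested. In RNA of sorted pools, a change in the share of cells that express a gene and a change in RNA per cell cannot be told apart.

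**Figure D2:**
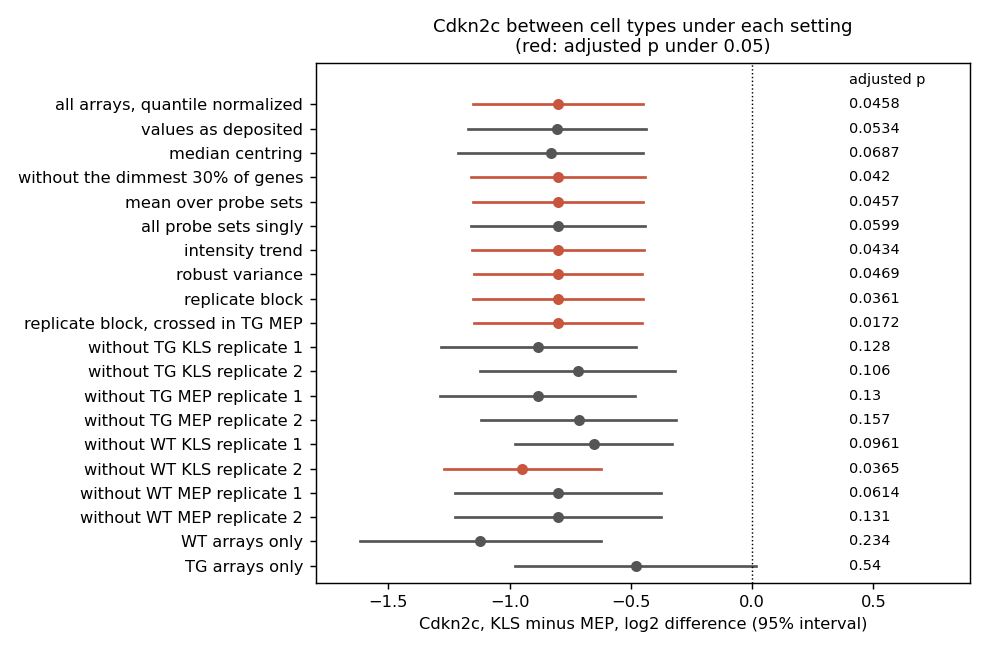
Cdkn2c log2 difference, KLS minus MEP (horizontal axis), with limma's 95% interval and adjusted p under each setting; red marks an adjusted p under 0.05. Each setting places the difference below 0, from -1.12 within WT cells to -0.48 within TG cells, and the interval includes 0 within TG cells alone. The rows labelled WT and TG arrays only are contrasts of the fit to all arrays.

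The other INK4 genes were Cdkn2a, Cdkn2b and Cdkn2d. Cdkn2a encodes both the INK4A protein and, from another first exon, the ARF protein that stabilises p53. RefSeq gives it windows before 2 starts, chr4:89294620-89294869 and chr4:89282193-89282442. The sources used here do not say which transcripts its 1 probe set (10514340) reads. Its log2 level was 6.13 and 6.20 in WT KLS, 6.06 and 6.06 in TG KLS, 5.96 and 6.22 in WT MEP and 5.98 and 6.29 in TG MEP cells. The KLS arrays lay inside the span of the MEP arrays, and KLS minus MEP was 0.0018 ± 0.11 (95% interval -0.26 to 0.26). It was not called (limma adjusted p = 0.998).

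Cdkn2b encodes an INK4 inhibitor induced by TGF-beta. Its log2 level (probe set 10514347) was 6.21 and 6.04 in WT KLS, 6.31 and 6.22 in TG KLS, 6.05 and 6.28 in WT MEP and 6.01 and 6.27 in TG MEP cells. The cell types overlapped, with KLS minus MEP at 0.04 ± 0.11 (-0.21 to 0.29), not called (limma adjusted p = 0.944). Cdkn2d encodes the fourth INK4 inhibitor. Its log2 level (probe set 10591517) was 6.82 and 6.82 in WT KLS, 6.80 and 6.59 in TG KLS, 7.09 and 6.79 in WT MEP and 6.77 and 6.46 in TG MEP cells. The cell types overlapped here too, at -0.02 ± 0.12 (-0.30 to 0.25), not called (limma adjusted p = 0.971).

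Of the CIP genes, Cdkn1b encodes the inhibitor KIP1, which acts above all on CDK2 complexes and whose level is largely set by protein degradation. On the brighter probe set (10542317), used for the gene, the log2 level was 8.60 and 9.68 in WT KLS, 9.29 and 9.15 in TG KLS, 9.91 and 9.11 in WT MEP and 8.78 and 9.18 in TG MEP cells. On the other probe set (10542310) it was 8.36 and 8.12 in WT KLS, 8.12 and 7.94 in TG KLS, 8.72 and 7.73 in WT MEP and 7.58 and 7.83 in TG MEP cells. WT MEP 1 was the highest array on both probe sets. The WT KLS arrays lay 1.08 apart on the brighter probe set and 0.24 apart, in the other order, on the second, whereas the median gap between WT KLS replicates over all genes was 0.18.

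The Cdkn1b probe sets correlated at 0.52 over the 8 arrays, which share the same RNA. KLS minus MEP was -0.06 ± 0.25 (95% interval -0.64 to 0.51) on the brighter and 0.17 ± 0.20 (-0.29 to 0.64) on the other probe set, neither called (limma adjusted p = 0.964 over genes and 0.829 over probe sets). Both intervals include differences in either direction.

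Cdkn1c encodes KIP2, known as an inhibitor of quiescent blood stem cells in mice. Its log2 level (probe set 10569429) was 6.00 and 6.02 in WT KLS, 6.10 and 6.09 in TG KLS, 5.87 and 6.08 in WT MEP and 5.97 and 6.04 in TG MEP cells. The cell types overlapped, at 0.06 ± 0.10 for KLS minus MEP (-0.16 to 0.28), not called (limma adjusted p = 0.878). Cdkn1c, Cdkn2a and Cdkn2b spanned 0.23, 0.33 and 0.30 over all 8 arrays, against 0.63 for Cdkn2d, 1.30 and 1.14 for the Cdkn1b probe sets and 1.41 for Cdkn2c. All 6 genes passed a filter that leaves out the dimmest 30% of genes. The mean levels of Cdkn1c, Cdkn2a and Cdkn2b (6.02, 6.11 and 6.17) still lay below the deposited median of each array (6.34 to 6.45). The values used here carry no detection call, so whether a level lies above background was not tested.

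The comparison of TG with WT asks whether the shortened Hmga2 goes with a change in these inhibitors. In KLS cells 0 of the 6 genes were called by limma and 0 had an unadjusted p under 0.05, beside 0% of all genes called and 500 genes at an unadjusted p under 0.05. Cdkn2a, the known target of Hmga2 in neural stem cells, was at -0.10 ± 0.16 for TG minus WT (95% interval -0.46 to 0.26), with both TG arrays below both WT arrays. Cdkn2d was also lower on both TG arrays, at -0.12 ± 0.17 (-0.51 to 0.26).

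Cdkn2b was higher on both TG KLS arrays, at 0.14 ± 0.16 (-0.22 to 0.50), as was Cdkn1c at 0.08 ± 0.14 (-0.23 to 0.39). Thus 4 of the 6 genes had TG and WT arrays that did not overlap, 2 in each direction, where 29.0% of all genes did. Of these 4, Cdkn1c, Cdkn2a and Cdkn2b had mean levels below the array medians. Cdkn2c was at 0.23 ± 0.22 (-0.27 to 0.72) and Cdkn1b at 0.08 ± 0.36 (-0.74 to 0.89), both with overlapping arrays. Cdkn1b was at 0.62 without WT KLS 2 and -0.46 without WT KLS 1, and of the 4 KLS arrays the sign changed on leaving out WT KLS 1 only. Its second probe set was at -0.21 ± 0.29, with both TG arrays below both WT arrays. Cdkn2c was at 0.52 without WT KLS 2 and -0.07 without WT KLS 1.

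**Figure D3:**
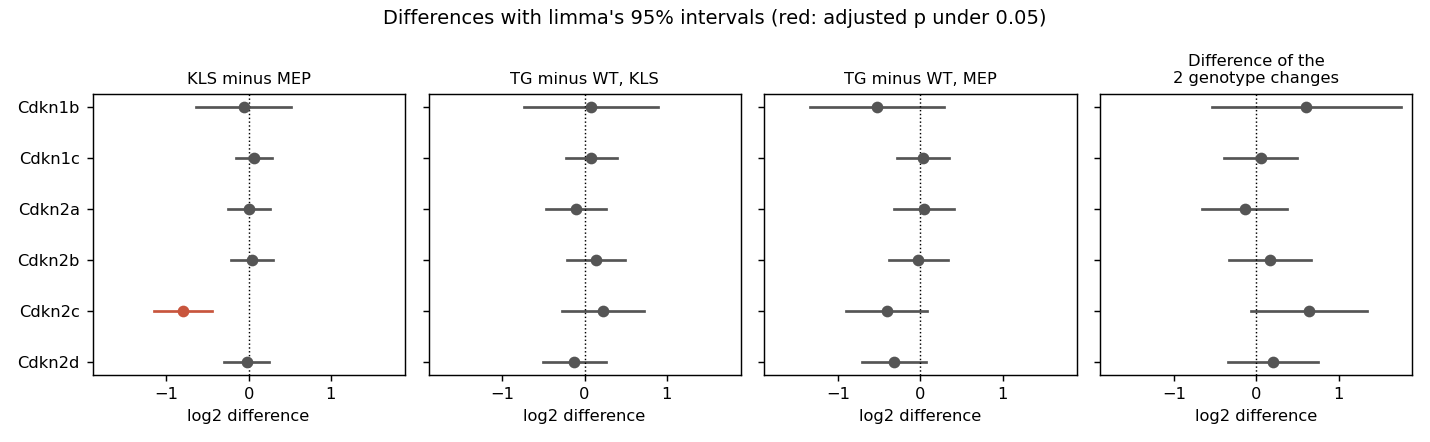
Log2 difference (horizontal axis) of each CDK inhibitor gene for KLS minus MEP, TG minus WT in each cell type, and the difference of the 2 genotype changes (KLS less MEP); points are estimates, bars are limma's 95% intervals, and red marks an adjusted p under 0.05. Of these, Cdkn2c between cell types is the red one, and every interval for TG minus WT includes 0.

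In MEP cells the estimates of 4 of the 6 genes were below 0 for TG minus WT, and again 0 were called by limma (0% of all genes called, 739 genes at an unadjusted p under 0.05). Cdkn2c was at -0.41 ± 0.22 (95% interval -0.91 to 0.08) and Cdkn2d at -0.32 ± 0.17 (-0.71 to 0.07), both with the TG arrays below both WT arrays. Such a separation, in either direction, held for 30.2% of all genes and for 2 of the 6. Cdkn2c was at -0.41 without WT MEP 1 as well, at -0.24 without TG MEP 1 and at -0.58 without TG MEP 2. Cdkn2d was at -0.17 without WT MEP 1, at -0.48 without TG MEP 1 and at -0.16 without TG MEP 2.

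Cdkn1b was at -0.53 ± 0.36 (-1.34 to 0.28) on the brighter and -0.52 ± 0.29 (-1.18 to 0.14) on the other probe set, with overlapping arrays on both. Without WT MEP 1 the brighter probe set was at -0.13, and without WT MEP 2 at -0.93. The part of the high lymphoid, neutrophil and KLS markers on WT MEP 1 in the Cdkn1b value was not tested. Cdkn1c (0.03 ± 0.14), Cdkn2a (0.04 ± 0.16) and Cdkn2b (-0.02 ± 0.16) had intervals within -0.38 to 0.41.

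Averaged over both cell types, 0 of the 6 genes were called for TG minus WT (0% of all genes, 649 at an unadjusted p under 0.05). The estimates ran from -0.23 ± 0.25 for Cdkn1b and -0.22 ± 0.12 for Cdkn2d to 0.06 ± 0.11 for Cdkn2b, with the median of the 6 at -0.06 and that of all genes at -0.01. TG and WT arrays overlapped for each of the 6, whereas 1.60% of all genes had no overlap.

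The interaction tests whether the genotype change differed between cell types, and equally whether the KLS to MEP difference differed between genotypes. For Cdkn2c the change in KLS cells less that in MEP cells was 0.64 ± 0.31 (95% interval -0.06 to 1.34, unadjusted p = 0.0694 by limma), and it was not called (adjusted p = 1.00). It was 0.35 without WT KLS 1 and 0.93 without WT KLS 2 (0.29 to 1.58, not called), the lowest and highest values with 1 array left out. The smaller difference between cell types in TG than in WT cells was therefore not established. For the other 5 genes the interaction ran from -0.14 ± 0.23 for Cdkn2a to 0.61 ± 0.51 for Cdkn1b, and 0 were called (0% of all genes, 453 at an unadjusted p under 0.05). That of Cdkn1b was 0.070 without WT KLS 1 and 1.15 without WT KLS 2.

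The partners and regulators of the inhibitors were described from lists chosen for their roles, with 0 genes of any list called by limma in any of the comparisons. Between the cell types the list of INK4 partners, which holds Cdk4, Cdk6 and the D cyclins, was at a median of 0.42 for KLS minus MEP. The median of all genes was 0.01. Of the D cyclins, which activate CDK4 and CDK6, Ccnd1 was at 0.45 ± 0.14 (adjusted p = 0.159), Ccnd2 at 0.43 and Ccnd3 at -0.03. Of the kinases, Cdk6 was at 0.42 and Cdk4 at 0.04. The KLS and MEP arrays overlapped for each gene of this list except Ccnd1. Of the 5 genes, 3 had an unadjusted p under 0.05, as did 14.3% of all genes.

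The list of CIP partners, which holds Pcna and Mnat1 beside cyclins and kinases, had estimates below 0 for 9 of 11 measured genes, with a median of -0.25. Ccne2, a cyclin that activates CDK2, averaged 8.96 on the KLS and 9.61 on the MEP arrays, a difference of -0.65 ± 0.13 (adjusted p = 0.0506 by limma). The other E cyclin, Ccne1, was at -0.61, with overlapping KLS and MEP arrays. Pocket proteins and E2F factors, which act below the CDKs, had 11 of 13 estimates below 0 and a median of -0.16. Among them Rb1, the retinoblastoma protein that D cyclin kinases phosphorylate, was at -0.56 ± 0.13 (adjusted p = 0.0692).

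Proliferation genes had 17 of 17 estimates below 0, with a median of -0.25, 6 at an unadjusted p under 0.05 (14.3% over all genes) and Bub1, a mitotic checkpoint kinase, at -0.49 ± 0.11 (adjusted p = 0.0735 by limma). Genes of the ubiquitin ligases that degrade CIP proteins had 9 of 11 estimates below 0 (median -0.19), with Ubac1, a subunit of a KIP1 ligase, at -0.66 ± 0.14 (adjusted p = 0.0541). Repressors of CDK inhibitor genes, mostly Polycomb proteins, were split 8 above and 9 below 0, with Suz12 at -0.36 ± 0.10 (adjusted p = 0.127). Activators were above 0 in 15 of 17, with Klf6 at 1.30 ± 0.44 (adjusted p = 0.197). The p53 axis was below 0 in 5 of 6, with Ccng1 at -0.31 ± 0.11 (adjusted p = 0.238). The cell types overlapped for Klf6 (7.36 to 8.79 on the KLS and 5.80 to 7.47 on the MEP arrays) and for Ccng1. Trp53 and Ccnb1 were not among the genes with a probe set of 1 symbol. An unadjusted p under 0.05 by limma held for 5 of 11 CIP partners, 2 of 13 pocket protein and E2F genes and 5 of 11 ligase genes. It held for 6 of 17 repressors, 2 of 17 activators and 1 of 6 genes of the p53 axis, beside 14.3% of all genes. The share of all genes on either side of 0 was not counted, and their median was 0.01.

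**Figure D4:**
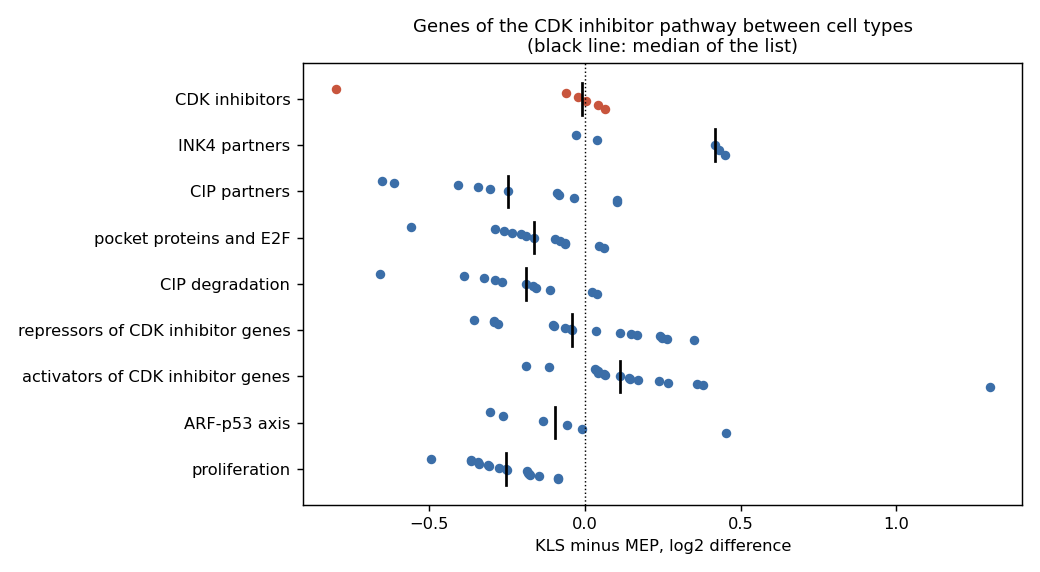
Log2 difference, KLS minus MEP (horizontal axis), of the 6 CDK inhibitor genes (red) and of the genes of each list (blue), with the list's median as a black line. The points of the proliferation list all lie below 0. In the INK4 partners list (Cdk4, Cdk6 and the D cyclins) 3 of 5 genes lie near 0.42 to 0.45. Of the 6 inhibitors, 5 lie between -0.06 and 0.06 while Cdkn2c lies at -0.80.

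The genes whose level most resembled Cdkn2c over the 8 arrays were ranked by Pearson correlation among 18146 named genes, as a description, since the arrays share 2 cell types and all normalization. They were Eef1e1, a factor of the tRNA synthetase complex (0.98), Cop1, a ubiquitin ligase (0.96), Magee1 (0.96), Ttc41 (0.96) and Ppm1d, a phosphatase of the p53 response (0.95). None of these 5 was called between the cell types by limma (adjusted p from 0.0825 to 0.385), and Magee1 had the widest difference of them, at -0.53. Among the inhibitors themselves the closest pair over the 8 arrays was Cdkn1c with Cdkn2b (0.74), whose levels each span 0.30 or less, and Cdkn2c correlated with Cdkn1b at 0.49 and with the others between -0.28 and 0.19.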

How the data were processed

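The authors deposited log2 values, 1 per probe set and array, whose scale was read from their range of 1.71 to 14.0. Per the submitters' processing notes they used Affymetrix Expression Console, and how probes were summarized and scaled is not stated there. Deposited array medians spanned 0.106, and arrays were quantile normalized. The 21789 probe sets with 1 symbol were kept, and the brightest one (mean of all arrays) stood for each of 999 genes with several. Tests used limma 3.58.1 (R 4.3.3) with 1 mean per group, 5 contrasts and default eBayes, two-sided, with Benjamini-Hochberg adjustment over 19938 genes. Each CDK inhibitor was named, as were, per list and contrast, the genes past the threshold or else the one with the smallest p, and the 5 genes most correlated with Cdkn2c. Ccnd2, Ccnd3, Cdk6, Cdk4, Ccne1 and Itga2b were added after their values were seen. Members and lists were chosen with earlier results of these data known. P-values weigh a difference against the spread between the 2 pools of a group, shared over the groups and moderated over all genes. Variation between single mice is not measured. The procedure was tested on simulated data. Arrays have no read depth, so their number limits the precision. Alternatives covered scaling, a filter on dim genes, probe set choice, variance models, the replicate number as a block, each cell type alone and leaving out each array.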

Additional observations from a re-analysis of the deposited data

How the results depend on the processing

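Between the cell types the number of CDK inhibitor genes called was 1, Cdkn2c. It was 0 with the values as deposited, with median centring and with all probe sets singly. It was also 0 for the contrasts within WT and within TG cells, which come from the fit to all arrays. With 1 array left out the call was kept only when that array was WT KLS 2. Adjusted p for Cdkn2c was 0.0599 with all probe sets singly and at most 0.0469 with the dim filter, probe set means, intensity trend, robust variance or the block. No other call of a CDK inhibitor was made under any alternative. The number of all genes called between the cell types was 319, with 123 under median centring and 179 with all probe sets singly. It was 1 for the contrast within WT cells and 27 for that within TG cells. With 1 array left out, the number for both genotypes together moved widely in both directions. Without WT MEP 2, genes were called for TG minus WT in MEP cells, averaged and for the interaction. Those fits rest on WT MEP 1, the array with the high lymphoid, neutrophil and KLS markers, as the sole WT MEP array.

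Within-group deviations of the same replicate number correlated at 0.18 to 0.38 among TG KLS, WT KLS and WT MEP and at -0.28 to -0.17 between TG MEP and each of these. Since 3 of the 6 correlations were below 0.1, the numbers were not taken as pairs. With the replicate number as a block 562 genes were called between the cell types, 1 was called for TG minus WT averaged, and Cdkn2c had adjusted p = 0.0361. With the numbers of TG MEP exchanged, chosen after seeing the data, 1040 genes were called.

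Estimates near 0 changed sign, and the cause was not tested. As deposited, TG minus WT in MEP cells was 0.048 for Cdkn2b and the interaction was -0.068 for Cdkn1c. With median centring these were 0.020 and -0.010, and KLS minus MEP was -0.00011 for Cdkn2a. With the mean over probe sets Cdkn1b was at 0.055 for KLS minus MEP and -0.067 for TG minus WT in KLS cells. For KLS minus MEP, the contrast within WT cells was -0.041 for Cdkn2b. That within TG cells was 0.24 for Cdkn1b, -0.070 for Cdkn2a and 0.076 for Cdkn2d.

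With 1 array left out, KLS minus MEP ran from -0.33 to 0.21 for Cdkn1b, -0.076 to 0.080 for Cdkn2a, -0.025 to 0.11 for Cdkn2b and -0.10 to 0.055 for Cdkn2d. TG minus WT in KLS cells ran from -0.46 to 0.62 for Cdkn1b and -0.066 to 0.52 for Cdkn2c. In MEP cells it ran from -0.077 to 0.14 for Cdkn1c, -0.11 to 0.20 for Cdkn2a and -0.15 to 0.11 for Cdkn2b. Averaged, it ran from -0.50 to 0.042 for Cdkn1b, -0.11 to 0.050 for Cdkn2a, -0.0078 to 0.12 for Cdkn2b and -0.24 to 0.054 for Cdkn2c. The interaction ran from -0.055 to 0.16 for Cdkn1c and -0.30 to 0.012 for Cdkn2a.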

Other observations

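Of the genes of these lists, Btg2, a p53 target that slows the cell cycle, had the widest estimate for TG minus WT in MEP cells. Its log2 level was 6.98 and 7.89 in TG MEP cells and 9.85 and 8.17 in WT MEP cells, a log2 difference of -1.58 ± 0.47. TG KLS cells averaged 8.33 and WT KLS cells 9.02 (-0.69 ± 0.47), and limma called neither (adjusted p = 1.00 each). The MEP estimate was -0.74 without WT MEP 1, the array with the high lymphoid, neutrophil and KLS markers. It was -2.42 without WT MEP 2, where WT MEP 1 was the sole WT MEP array. Foxo1, a transcription factor that induces Cdkn1b, was at -0.65 ± 0.25 in MEP cells, and E2f2, an activator of cell cycle genes, at -0.49 ± 0.18. Both had TG arrays below both WT arrays, a separation that 30.2% of all genes had in either direction, and neither was called. Foxo1 was 7.78 on WT MEP 1 and 7.01 on WT MEP 2, and leaving out the first of these gave a difference of -0.27 and leaving out the second gave -1.03. For E2f2 it was -0.25 without TG MEP 1 and -0.72 without TG MEP 2. Rnf2, a Polycomb ubiquitin ligase that represses the Cdkn2a locus, averaged 8.20 in TG KLS cells and 7.50 in the WT ones, a difference of 0.70 ± 0.27, with both TG arrays above both WT arrays and no call. It was 0.32 without WT KLS 2 and 1.08 without WT KLS 1. The Rnf2 interaction was 0.93 ± 0.39 (unadjusted p = 0.0404 by limma, not called), where 2.27% of all genes had an unadjusted p under 0.05. Cul4b, of a ligase that degrades CIP proteins, was at 0.29 ± 0.16 and Ccne2 at 0.37 ± 0.19 in KLS cells, each higher on both TG arrays and not called. In KLS cells 29.0% of all genes had TG and WT arrays that did not overlap, in either direction. Each gene named here had the smallest p of its list in that comparison, so its separation is no independent result. Cul4b was at 0.10 without TG KLS 1 and 0.48 without TG KLS 2, and Ccne2 at 0.10 without WT KLS 1 and 0.63 without WT KLS 2.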
